A study of Mus musculus with 8 samples.

Results

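The 36 genes described here are cell cycle genes: 2 G1 cyclins, 11 genes of DNA replication and entry into S phase, and 23 genes of mitosis. They were chosen by symbol, and all 36 were listed in a table of 23356 genes. They were compared across 8 RNA sequencing libraries of mouse sciatic nerve, with differences taken between libraries of the same set as defined below. In brief, 19 to 21 of the 23 mitotic genes stood above wild type in both sets in each of the other genotypes. So did 2 to 5 of the 11 S phase genes, and 23.8% to 29.9% of all genes. For the Q215X/+ genotype against wild type, sex and genotype cannot be told apart. No member was called in a fit without pairing. With the sets treated as pairs, the G1 cyclin Ccnd2 rose with the transgene and the cytokinesis gene Anln fell with it. These are 2 of 26 tested members, a share near the 7.1% of all genes called in the same fit. Sex differed within most of the pairs with and without the transgene.

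Nerves came from F1 mice, C57BL/6 crossed with FVB/N, at postnatal day 30, with no treatment named in the labels. The 4 genotypes had 2 libraries each: wild type (WT); Q215X/+, heterozygous for the Q215X mutation of P0, the main protein of peripheral myelin; HA-NRG1 type III/+, which carries an HA-tagged type III neuregulin 1 transgene, an axonal signal to Schwann cells; and HA-NRG1 type III/+:Q215X/+, with both alleles (the double). The promoter of the transgene, the number of nerves pooled and whether libraries came from separate animals are stated in no source used here. Each p-value then reflects how far these libraries spread, and that spread may be technical. Levels are FPKM, a fragment count scaled by gene length and by sequencing depth, and depth in reads is unknown. The most common ratio among genes at or below 0.05 FPKM in both libraries put relative depth at 0.727 to 1.09 of WT set 0. This estimate is rough. That ratio was held by 34 to 38 of 739 to 851 such genes in set 1 libraries. In the other set 0 libraries it was held by 104 to 177 of 790 to 911. Each genotype has 1 library in set 0 and 1 in set 1, named after the endings of the table's column names, which no label ties to a replicate number.

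Facts of the libraries bear on all that follows. The first principal component of all genes parted set 0 from set 1 in every genotype. Xist and the Y-linked Ddx3y read both WT and both double libraries as female and both Q215X/+ libraries as male. HA-NRG1 type III/+ read as male in set 0 and female in set 1. A term for sex is therefore estimated from these 2 libraries alone, in which sex and set coincide, and without the block it takes up the set difference too. Sex and genotype thus cannot be told apart in Q215X/+ against WT or in the double against Q215X/+, whereas the double against WT compares females only. The transgene over both backgrounds includes the double against Q215X/+, so it is mixed with sex as well. Defining Schwann cell markers were abundant, with the summed level of 10 myelinating Schwann cell genes at 54891 to 78885 FPKM. In whole nerve, more cells of a dividing type and more RNA per cell cannot be told apart.

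A cell enters the cycle when D-type cyclins, induced by growth signals, activate kinases that inactivate the retinoblastoma proteins and free E2F factors. E2F then drives the genes of DNA replication. Genes of mitosis follow later and are held down in resting cells by the DREAM complex at the cell cycle homology region (CHR), an element that often lies near CCAAT boxes bound by NF-Y. Schwann cells divide around birth and then stop as they myelinate, and they divide again after nerve injury. Macrophages, fibroblasts and vessel cells of the nerve can divide as well.

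The RefSeq promoter table (GRCm38.p6) held a window of 250 bases before to 50 after the start for 28 of the 36 members. The windows are described because the CHR letters were more frequent in those of mitotic than of S phase members, a feature that expression did not choose. The members whose stretches are printed were picked with their levels known. The CHR letters TTTGAA, searched on both strands, occurred in 14 of 19 mitotic windows (73.7%), in 1 of 9 S phase windows (11.1%) and in 18.1% of 27025 genes. The letters CCAAT occurred in 84.2% of mitotic and 77.8% of S phase windows, against 37.9% of all genes. The E2F letters TTCCCGC or TTGGCGC occurred in 15.8% of mitotic windows, 44.4% of S phase windows and 6.93% of all genes. TTGGCGC read backwards can share letters with CCAAT. A match is a description of the letters only. Below are the 150 bases before the start set by the promoter windows for 7 members, each 5′ to 3′ on the gene's strand. CHR, CCAAT and E2F letters of either strand are in capitals. For Mki67, Top2a and Anln that start lies inside the RefSeq span of the gene, so their stretches reach into it. The last bases of the Mcm6 window matched no GENCODE transcript of the gene. Mki67, Top2a and Ccnb2 are mitotic members, Anln is the mitotic member that was lower in all 4 transgenic libraries, and Mcm2, Mcm3 and Mcm6 belong to the replicative helicase.
Mki67 (chr7:135716380-135716529, minus strand): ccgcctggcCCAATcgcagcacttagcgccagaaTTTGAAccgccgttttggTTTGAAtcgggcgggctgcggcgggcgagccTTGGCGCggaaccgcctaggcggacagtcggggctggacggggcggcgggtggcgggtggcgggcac
Top2a (chr11:99024190-99024339, minus strand): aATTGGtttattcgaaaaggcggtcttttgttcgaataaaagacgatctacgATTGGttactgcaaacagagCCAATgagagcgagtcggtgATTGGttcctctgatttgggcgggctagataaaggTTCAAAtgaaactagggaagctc
Ccnb2 (chr9:70421555-70421704, minus strand): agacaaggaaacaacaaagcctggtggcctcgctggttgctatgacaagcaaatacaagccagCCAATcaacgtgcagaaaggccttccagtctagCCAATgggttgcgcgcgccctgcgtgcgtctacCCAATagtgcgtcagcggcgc
Anln (chr9:22389207-22389356, minus strand): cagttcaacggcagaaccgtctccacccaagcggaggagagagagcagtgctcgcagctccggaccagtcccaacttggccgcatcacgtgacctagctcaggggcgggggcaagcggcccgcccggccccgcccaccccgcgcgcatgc
Mcm2 (chr6:88898781-88898930, minus strand): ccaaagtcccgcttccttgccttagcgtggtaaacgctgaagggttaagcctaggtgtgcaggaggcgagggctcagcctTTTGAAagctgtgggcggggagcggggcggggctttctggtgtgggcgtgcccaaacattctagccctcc
Mcm3 (chr1:20820313-20820462, minus strand): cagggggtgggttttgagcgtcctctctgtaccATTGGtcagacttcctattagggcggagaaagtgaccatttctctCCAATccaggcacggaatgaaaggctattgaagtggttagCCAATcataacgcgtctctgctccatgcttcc
Mcm6 (chr1:128359706-128359855, minus strand): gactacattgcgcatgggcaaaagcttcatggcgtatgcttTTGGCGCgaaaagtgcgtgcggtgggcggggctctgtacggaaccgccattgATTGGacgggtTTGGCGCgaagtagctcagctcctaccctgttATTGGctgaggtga
The stretch of Mki67 holds 2 CHR matches beside CCAAT and E2F letters, and that of Top2a holds CHR and CCAAT. Ccnb2 has CCAAT only in the stretch shown, and its CHR letters lie outside it in the window. The Anln stretch holds none of these letters, and its window has CHR letters only after the start and no CCAAT. The mitotic members Nusap1 and Birc5, not shown, hold none of these letters in the stretch or in the rest of the window. Both genes were above WT in both sets of HA-NRG1 type III/+, Nusap1 1.67- and 2.11-fold and Birc5 1.74- and 1.89-fold. A link between these letters and levels was not tested. Of the S phase stretches shown, that of Mcm2 holds the single CHR match, that of Mcm3 CCAAT, and that of Mcm6 CCAAT and E2F letters. Outside the stretch, the Mcm2 window also holds CCAAT and the Mcm3 window holds E2F letters after the start.

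The mitotic members were expressed at low levels, with a median of the mean FPKM over the 8 libraries of 1.28, against 2.33 for S phase members. The highest member was Pcna, the sliding clamp of DNA polymerase, at a mean of 44.6 FPKM, followed by Ccnd1 at 42.5. The lowest was Bub1, a kinase of the spindle checkpoint, at 0.297 FPKM. Of the 36 members, 26 reached the mean of 1 FPKM needed for testing, namely both G1 cyclins, 10 S phase and 14 mitotic members. The 10 below it were Ccne2, Cdk1, Ccnb1, Plk1, Aurkb, Bub1, Bub1b, Cenpe, Cenpf and Kif11, so counts of tested members leave out core mitotic regulators. A fit without the filter covered all 36 and called 0 of them in each comparison when unpaired.

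**Figure D1:**
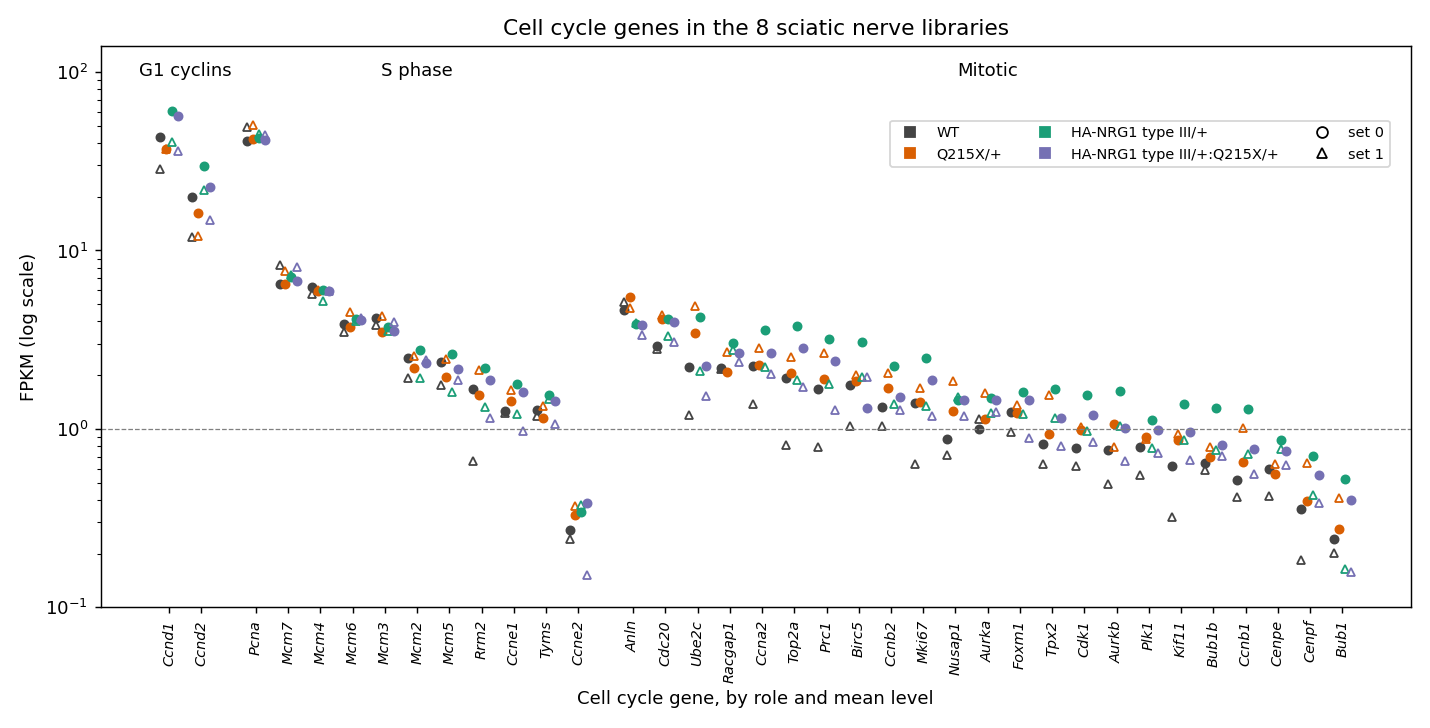
FPKM of each of the 36 members on a log axis, by role and mean level. Filled circles are set 0 and open triangles set 1, coloured by genotype, and the dashed line is 1 FPKM. Pcna and Ccnd1 stand near 40 FPKM, whereas mitotic members lie between 0.158 and 5.46 FPKM.

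Among the G1 cyclins, Ccnd2 was higher with the transgene on both backgrounds. In sets 0 and 1, WT libraries had 19.8 and 11.9 FPKM, Q215X/+ libraries 16.2 and 12.1, HA-NRG1 type III/+ libraries 29.7 and 21.9, and double libraries 22.6 and 14.8. Every transgenic library stood above the library of the same set without the transgene, but the set 1 library of the double lay below the set 0 libraries of WT and Q215X/+. Group means were 25.8 ± 5.52 FPKM in HA-NRG1 type III/+, 18.7 ± 5.48 with both alleles, 15.9 ± 5.57 for WT and 14.1 ± 2.88 for Q215X/+ (SD, n = 2 each). The gene spans chr6:127125162-127152188 (GRCm38.p6).

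The fits used limma on log2(FPKM + 1), a scale that understates the change of low genes, with Benjamini-Hochberg adjustment over the 12530 genes tested. Without pairing, limma called 0 of the 26 tested members for the transgene over both backgrounds, where 0.99% of all genes tested were called. With the set as a replicate block it called 2 of 26, near the share of all genes called (7.1%). Ccnd2 rose by 0.53 log2 units (SE 0.06, adjusted p = 0.00737 with limma and the block, 0.436 without). In HA-NRG1 type III/+ against WT alone, Ccnd2 was the member called with the block, at 0.69 (SE 0.08, limma adjusted p = 0.027), where 2.11% of all genes were called, and 0 of 26 were called without the block (0.0638% of all genes). That single-background call was lost in the paired fit without a filter on low genes (limma adjusted p = 0.0788) and with a term for sex (0.135). The call over both backgrounds held in these fits (limma adjusted p = 0.0275 and 0.0432). Over the settings tried that adjusted p ran from 0.00737 to 0.828. In HA-NRG1 type III/+ against WT the difference of Ccnd2 was 0.35 without the set 1 library of WT and 1.03 without its set 0 library.

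Ccnd1, the other D-type cyclin, followed the sets as much as the transgene. The WT libraries had 43.1 and 28.7 FPKM, Q215X/+ libraries 37.2 and 37.1, HA-NRG1 type III/+ libraries 60.7 and 40.4, and double libraries 56.6 and 36.2. The transgenic libraries of set 0 were the highest, and in set 1 the double was slightly below Q215X/+. The difference over both backgrounds was 0.38 log2 units (SE 0.21, limma adjusted p = 0.639, and 0.0958 with the block). Exons of Ccnd2 overlap 368 bases of the antisense RNA 9330179D12Rik, which was at 0.232 to 0.338 FPKM without the transgene and 0.611 to 0.983 with it. No source used here states strand handling, so reads of the overlap cannot be assigned.

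The S phase members stood close to WT, apart from Q215X/+ in set 1. Their median within-set ratio to WT was 0.95 in set 0 and 1.29 in set 1 for Q215X/+, 1.10 and 0.976 for HA-NRG1 type III/+, then 1.04 and 1.05 for the double. Over all genes above 0 in every library the same medians were 0.992 to 0.997. For Pcna, WT libraries had 41.0 and 49.3 FPKM, Q215X/+ libraries 42.3 and 50.5, HA-NRG1 type III/+ libraries 42.6 and 45.2, and double libraries 41.4 and 44.3. Set 1 was above set 0 in each genotype, and all 4 groups overlapped.

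For Mcm2, a subunit of the replicative helicase, WT libraries had 2.51 and 1.92 FPKM, Q215X/+ libraries 2.20 and 2.57, HA-NRG1 type III/+ libraries 2.76 and 1.94, and double libraries 2.34 and 2.43. Its groups overlapped as well. Over all S phase members, ratios of group mean FPKM to WT ran from 0.963 for Mcm7 to 1.58 for Rrm2 in Q215X/+, from 0.913 for Mcm3 to 1.51 for Rrm2 in HA-NRG1 type III/+, and from 0.944 for Mcm3 to 1.29 for Rrm2 in the double. They were above 1 for 8, 7 and 7 of the 11 in that order. The number higher than WT in both sets was 3 of 11 for Q215X/+, 5 for HA-NRG1 type III/+ and 2 for the double, against 23.8%, 29.9% and 29.6% of all genes. Limma called 0 of the 10 tested S phase members in each of the 6 comparisons, with and without the block, and 0 of them had an unadjusted p under 0.05 without the block.

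Rrm2, the small subunit of ribonucleotide reductase, had the widest range among S phase members relative to its level. The WT libraries had 1.68 and 0.659 FPKM, Q215X/+ libraries 1.55 and 2.15, HA-NRG1 type III/+ libraries 2.20 and 1.33, and double libraries 1.87 and 1.15. The set 1 library of WT was the lowest by a wide margin, and the ratio of Q215X/+ to WT was 3.26 in set 1 but below 1 in set 0. Its differences from WT were 0.43 log2 units for Q215X/+, 0.37 for HA-NRG1 type III/+ and 0.23 for the double (SE 0.29 each; limma adjusted p = 1 in all 3). Without the set 1 WT library the last became −0.11. Tyms, which makes thymidylate, was 1.51 ± 0.0589 FPKM in HA-NRG1 type III/+ and 1.23 ± 0.0585 for WT (SD, n = 2 each), a difference of 0.17 log2 units (SE 0.12, limma adjusted p = 0.988). Mcm6 differed from WT by 0.13 in both Q215X/+ and the double (SE 0.10, limma adjusted p = 1). In the double against Q215X/+, Ccne1, the G1/S cyclin E1, differed by −0.16 (SE 0.175) and Pcna by −0.11 (SE 0.13), each with limma adjusted p = 1. Mcm3 differed by −0.07 (SE 0.08, limma adjusted p = 0.914) for the transgene over both backgrounds.

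Most mitotic members stood above WT in all 3 other genotypes, comparisons that share the WT libraries. In HA-NRG1 type III/+ the median ratio to WT of the same set was 1.78 in set 0 and 1.75 in set 1. In the double it was 1.36 and 1.35, and in Q215X/+ it was 1.14 and 1.98. The sets thus gave like values for both transgenic genotypes and unlike values for Q215X/+. The plot of ratios per gene shows the order of the members.

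**Figure D2:**
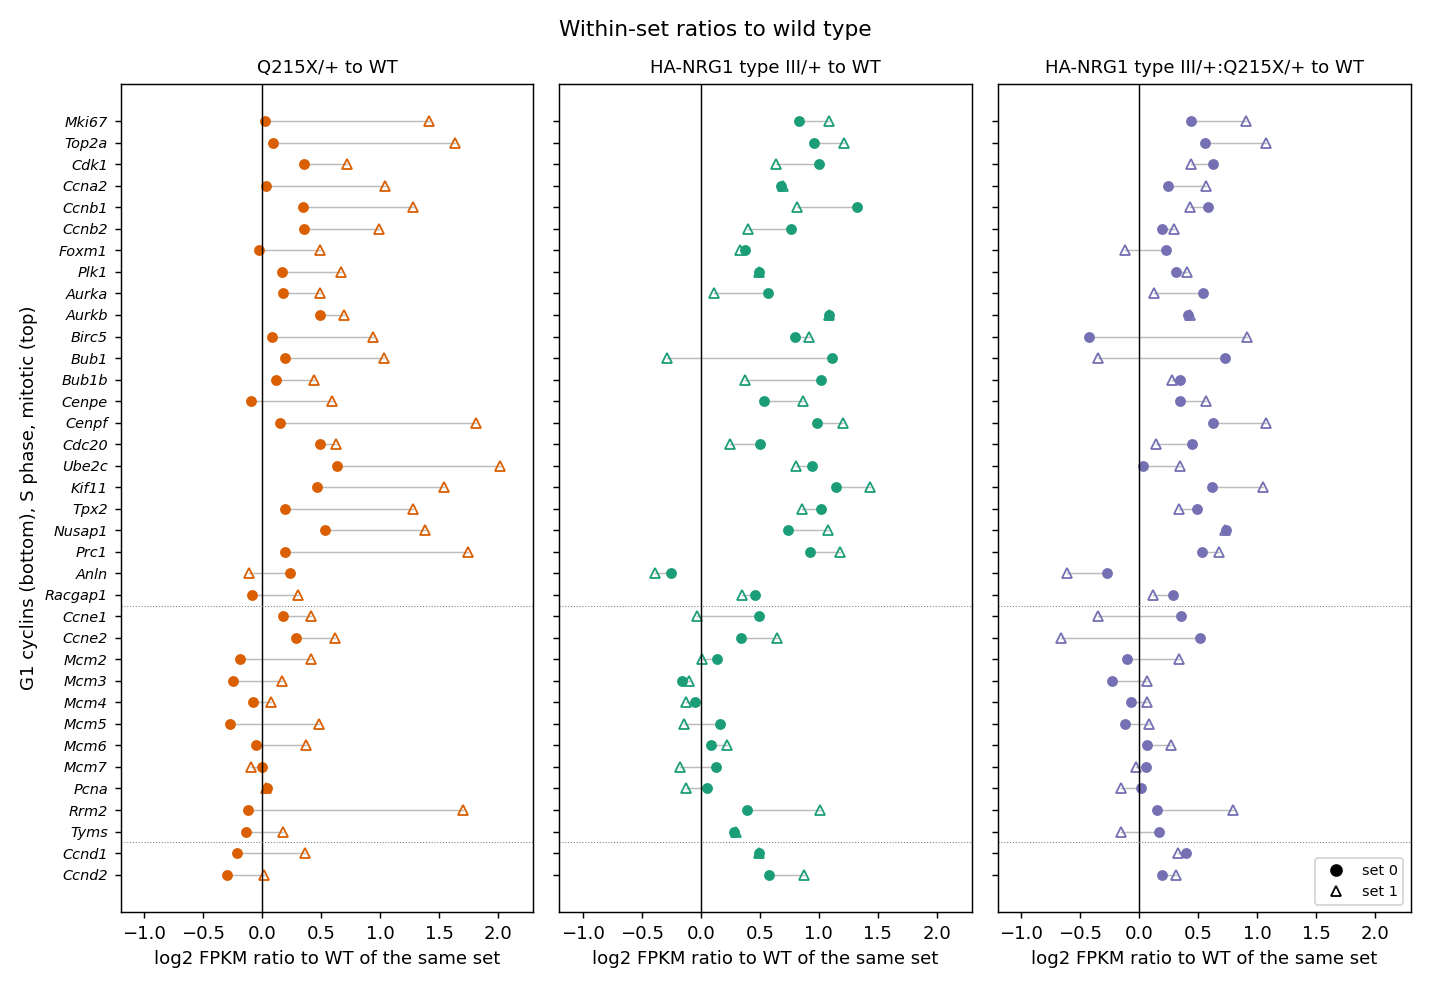
Log2 FPKM ratio of each member to WT of the same set, in 3 panels for the other genotypes, with mitotic members at the top, then S phase, then G1 cyclins. Circles are set 0 and open triangles set 1, joined by a line. In the HA-NRG1 type III/+ panel 21 of 23 mitotic members lie above 0 in both sets, and Anln lies below 0 in both.

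HA-NRG1 type III/+ was higher than WT in both sets for 21 of 23 mitotic members, against 29.9% of all genes above 0 in every library. The exceptions were Bub1, with a set 1 value below WT, and Anln, which was lower in both. The groups did not overlap, with HA-NRG1 type III/+ higher, for 15 of 23, against 16.5% of all genes. A 2 against 2 exact permutation test cannot give a two-sided p under 0.333, so such a separation is a description. Mitotic members share the 8 libraries and tended to move together, so counts of members are not counts of independent results.

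For Mki67, the proliferation marker Ki-67, WT libraries had 1.39 and 0.633 FPKM, Q215X/+ libraries 1.41 and 1.69, HA-NRG1 type III/+ libraries 2.48 and 1.35, and double libraries 1.89 and 1.19. The highest library was HA-NRG1 type III/+ of set 0 and the lowest WT of set 1, and the groups overlapped, with set 0 of WT just above set 1 of HA-NRG1 type III/+. The difference of HA-NRG1 type III/+ from WT was 0.53 log2 units (SE 0.27, limma adjusted p = 0.834). Top2a, the topoisomerase that untangles chromosomes before they separate, ranked the 8 libraries in the same order. The WT libraries had 1.93 and 0.812 FPKM, Q215X/+ libraries 2.06 and 2.53, HA-NRG1 type III/+ libraries 3.76 and 1.89, and double libraries 2.84 and 1.71, again with overlap of WT and HA-NRG1 type III/+. Its difference between these genotypes was 0.69 log2 units (SE 0.33, limma adjusted p = 0.81).

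Cdk1, the kinase that starts mitosis, was lowest in WT. For this gene WT libraries had 0.777 and 0.620 FPKM, Q215X/+ libraries 0.992 and 1.02, HA-NRG1 type III/+ libraries 1.55 and 0.968, and double libraries 1.20 and 0.841. Every library of the other genotypes lay above both WT libraries. In the fit without a filter its difference in HA-NRG1 type III/+ was 0.40 log2 units (SE 0.15, limma adjusted p = 0.616). Kif11, the motor that separates spindle poles, was also below the test limit. For Kif11, WT libraries had 0.623 and 0.322 FPKM, Q215X/+ libraries 0.863 and 0.938, HA-NRG1 type III/+ libraries 1.38 and 0.87, and double libraries 0.955 and 0.667. Both WT libraries were again the lowest, and the ratio of means to WT was 2.38 in HA-NRG1 type III/+, the highest of the 23 mitotic members.

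Nusap1, which bundles spindle microtubules, had the smallest p among tested mitotic members in HA-NRG1 type III/+ against WT. The WT libraries had 0.875 and 0.713 FPKM, Q215X/+ libraries 1.27 and 1.86, HA-NRG1 type III/+ libraries 1.46 and 1.51, and double libraries 1.46 and 1.18. Both WT libraries were lower than the other 6. Nusap1 shares 172 exonic bases with Oip5 on the other strand, which was at 0.236 to 0.646 FPKM. The difference in HA-NRG1 type III/+ was 0.47 log2 units (SE 0.14, limma adjusted p = 0.477, and 0.178 with the block). Of the 14 tested mitotic members, 0 were called. At an unadjusted p under 0.05, Birc5, Tpx2, Nusap1 and Racgap1 were higher, against 3.62% of all genes tested, and Anln was lower, against 3.28%.

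Values by library and by sex were as follows. In set 1, where WT and HA-NRG1 type III/+ both read as female, 21 of 23 mitotic members were above WT, from 0.766-fold for Anln to 2.70-fold for Kif11. The median log2 difference over the 23 members was 0.40 and became 0.22 without the set 0 library of HA-NRG1 type III/+ and 0.58 without its set 1 library. Over all genes tested the median was −0.00766. Between the 2 male libraries of set 0, HA-NRG1 type III/+ stood above Q215X/+ for 22 of 23 mitotic members, with a median ratio of 1.57. The median set 1 to set 0 ratio was 0.631 in HA-NRG1 type III/+ (male in set 0, female in set 1), 0.772 in WT and 0.721 in the double (both female in both sets). A fit with sex and the block parts sex from set only by taking the set difference from the other genotypes. The part of sex in the mitotic difference was not tested.

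In Q215X/+ against WT, 19 of 23 mitotic members were higher in both sets, against 23.8% of all genes, and the groups did not overlap for 18, against 10.4%. None was lower in both, against 26.7%. Those not higher in both were Foxm1, a transcription factor of mitotic genes, the kinesin gene Cenpe, Anln and Racgap1, a part of the central spindle. Cdc20, which activates the anaphase-promoting complex, was among the 18 without overlap. The WT libraries had 2.92 and 2.80 FPKM, Q215X/+ libraries 4.10 and 4.34, HA-NRG1 type III/+ libraries 4.15 and 3.32, and double libraries 3.98 and 3.09. WT was lowest in both sets, and Q215X/+ was 4.22 ± 0.163 FPKM against 2.86 ± 0.0849 for WT (SD, n = 2 each). Cdc20 shares 53 exonic bases with Elovl1 on the other strand. Its difference was 0.43 log2 units (SE 0.13) and that of Nusap1 was 0.51 (SE 0.14), both with limma adjusted p = 1. Limma called 0 of 26 members, with and without the block, where 0.00798% of all genes tested were called. At an unadjusted p under 0.05 without the block, Cdc20, Ube2c and Nusap1 were higher, 3 of 14 tested mitotic members against 0.966% of all genes.

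The size of this difference depended on the set. In set 0, 20 of 23 mitotic members were above WT, from 0.939-fold for Cenpe to 1.55-fold for Ube2c, the ubiquitin-conjugating enzyme of the anaphase-promoting complex. In set 1, 22 were above WT, up to 4.04-fold for Ube2c. The WT library of set 1 was low and the Q215X/+ library of set 1 was high, with a median set 1 to set 0 ratio of 0.772 in WT and 1.21 in Q215X/+. That Q215X/+ library also held skeletal muscle genes at a summed 747 FPKM, against 2.48 to 60.0 in the others. Ube2c shares 592 exonic bases with the muscle gene Tnnc2 on the other strand, which was at 186 FPKM in that library and 0.182 to 12.3 elsewhere. Both Q215X/+ libraries read as male, and the median mitotic difference of 0.30 log2 units became −0.0558 with a term for sex and 0.0634 with sex and the block. It was 0.16 without the set 1 library of WT.

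In the double against WT, where all 4 libraries read as female, 19 of 23 mitotic members were higher in both sets, against 29.6% of all genes. The groups did not overlap for 10, against 16.1%. The exceptions to a higher level in both sets were Foxm1, Birc5, Bub1 and Anln, of which only Anln was lower in both (33.1% of all genes). The 10 members without overlap included Cdk1, its partner Ccnb1, the kinases Aurka and Bub1b, and Kif11. Nusap1 differed by 0.37 log2 units (SE 0.14, limma adjusted p = 0.651). Limma called 0 of 26 members without the block (0.112% of all genes) and 0 with it (2.39%). At an unadjusted p under 0.05, Nusap1 was higher (3.44% of all genes) and Anln lower (3.85%). The median mitotic difference was 0.18, and that of S phase members 0.00928. The mitotic median was 0.0823 without the set 1 library of WT and 0.29 without that of the double.

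In the double against Q215X/+, 0 of 23 mitotic members were higher in both sets, against 29.7% of all genes, and 6 were lower in both, against 31.4%. The sets went opposite ways: 17 of 23 were above Q215X/+ in set 0, with a median ratio of 1.18, and 0 of 23 in set 1, with a median of 0.706. The double was lower without overlap for Ccnb2, Cdc20, Ube2c and Anln, 4 of 23 against 15.2% of all genes. For Ube2c WT libraries had 2.21 and 1.20 FPKM, Q215X/+ libraries 3.43 and 4.86, HA-NRG1 type III/+ libraries 4.24 and 2.11, and double libraries 2.26 and 1.53. The highest of these was the library high in Tnnc2, whose exons overlap Ube2c, and reads of the overlap cannot be assigned. Q215X/+ was above the double in both sets, and the difference was −0.83 log2 units (SE 0.31, limma adjusted p = 0.689). It was −0.0738 with a term for sex and −0.24 with sex and the block. Limma called 0 of 26 members here without the block (0.0399% of all genes) and 0 with it (1.72%). At an unadjusted p under 0.05, Ube2c and Anln were lower (3.13% of all genes) and 0 members higher (3.46%). The median mitotic difference was −0.0768, and it was 0.23 with a term for sex and 0.14 with sex and the block.

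The response to the transgene was lower on the Q215X/+ background than on WT for all 23 mitotic members in both sets, against 27.3% of all genes, while 26.9% of all genes were higher. For S phase members this held for 6 of 11. Mitotic members moved together within a library, so these counts of members, and those below, do not replicate the response. Their median set 1 to set 0 ratio was 1.21 in Q215X/+ and 0.631 to 0.772 in the other genotypes. The difference between the backgrounds, tested as an interaction, had a median of −0.55 log2 units over the 23 members and −0.10 over the 11. It was largest for Ube2c among the 36 members, at −1.43 (SE 0.44). The Ube2c value rests in part on the set 1 library of Q215X/+, which was high in the overlapping gene Tnnc2. Nusap1 was at −0.61 (SE 0.20). Of the S phase members, Rrm2 was at −0.56 (SE 0.41) and Ccne1 at −0.30 (SE 0.25). Limma called 0 of 26, with an adjusted p of 1 for these 4 (0.965 with the block), where 0.00798% of all genes were called in either fit. At an unadjusted p under 0.05, Ube2c, Nusap1, Tpx2, Ccnb2 and Cdc20 were lower, 5 of the 14 tested mitotic members against 0.575% of all genes tested, and 0 were higher (0.535%).

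The interaction holds sex as well, since on the Q215X/+ background the transgenic libraries read as female and the others as male. With a term for sex the mitotic median was 0.034, with 11 of 23 below 0, and with sex and the block it was −0.10, with 19 below 0. Between the 2 female libraries of set 1 that carry the transgene, the double stood below HA-NRG1 type III/+ for 22 of 23 mitotic members, with a median ratio of 0.869. That ratio compares single libraries that both have the transgene, so it is not a difference of transgene responses. On the Q215X/+ background no libraries of the same sex with and without the transgene exist. Nusap1 kept its value with a term for sex, at −0.65, whereas Ube2c moved to −0.30. With sex and the block they were at −0.63 and −0.55.

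Anln, which encodes the cleavage furrow scaffold anillin and is also known from central myelin, was lower with the transgene on both backgrounds. Against WT it went the other way from most mitotic members both in HA-NRG1 type III/+ and with both alleles, whereas in the double against Q215X/+ it was 1 of 19 of the 23 with a lower group mean. The WT libraries had 4.62 and 5.14 FPKM, Q215X/+ libraries 5.46 and 4.75, HA-NRG1 type III/+ libraries 3.88 and 3.94, and double libraries 3.83 and 3.35. The gene spans chr9:22331214-22389211 (GRCm38.p6). All 4 transgenic libraries lay below all 4 without the transgene, as did 4.64% of all genes, and 0 members lay above them without overlap, as did 4.98% of all genes. Group means were 3.91 ± 0.0428 FPKM for HA-NRG1 type III/+ and 4.88 ± 0.366 for WT (SD, n = 2 each). For the transgene over both backgrounds it fell by 0.33 log2 units with the block (SE 0.07, limma adjusted p = 0.0362). The limma adjusted p was 0.115 without the block, 0.104 with sex and the block, 0.0851 with the block and no filter, and 0.0362 to 0.379 over the settings tried. The single comparisons gave −0.26 (SE 0.10) for HA-NRG1 type III/+ against WT, −0.41 (SE 0.10) for the double against Q215X/+, and −0.36 (SE 0.10) for the double against WT. Their limma adjusted p were 0.68, 0.361 and 0.406.

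Ccnd2 was the sole member above its partner without the transgene in all 4 within-set pairs, against 14.6% of all genes. Anln was the sole member below it in all 4, against 15.7%. Sex differed within these pairs, except for HA-NRG1 type III/+ against WT in set 1, where both read as female. Racgap1 had the smallest p among the other mitotic members for the transgene over both backgrounds, at 0.18 log2 units (SE 0.08, limma adjusted p = 0.54), and Tyms among S phase members, at 0.08 (SE 0.08, limma adjusted p = 0.885). At an unadjusted p under 0.05, Ccnd2 was higher (5.88% of all genes) and Anln lower (5.28%). The median mitotic difference over both backgrounds was 0.17, and 0.0644 without the set 0 library of HA-NRG1 type III/+.

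**Figure D3:**
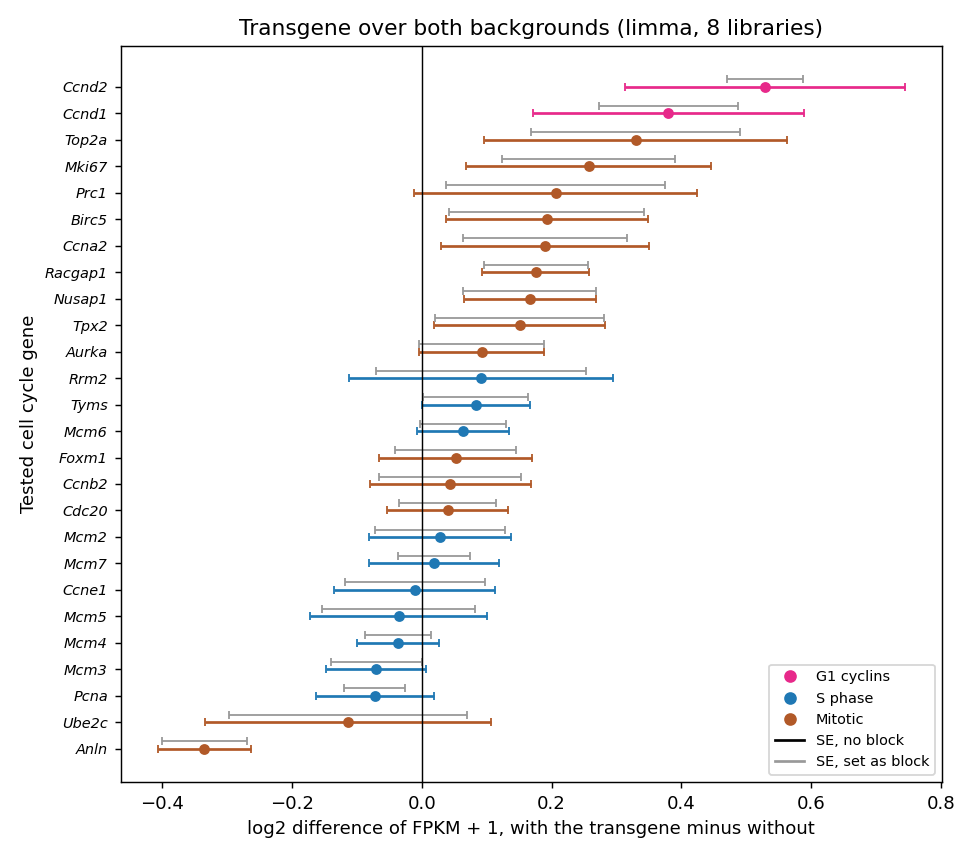
Log2 difference of FPKM + 1 with the transgene minus without, over both backgrounds, for the 26 tested members, coloured by role. Coloured bars are the SE without a block and grey bars the SE with the set as a block. Ccnd2 at 0.53 and Anln at −0.33 are the outermost members.

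Mitotic genes outside the 23 were compared to see how far the pattern reached. Of 52 other mitotic genes in the table, the number higher than WT in both sets was 30 for Q215X/+, 39 for HA-NRG1 type III/+ and 34 for the double, against 23.8%, 29.9% and 29.6% of all genes. Their median ratios to WT in sets 0 and 1 were 1.07 and 1.55 for Q215X/+, 1.39 and 1.41 for HA-NRG1 type III/+, then 1.24 and 1.16 for the double. In each library these ratios were lower than those of the 23 members, and Q215X/+ again differed between sets. Of the 52, 43 had a lower transgene response on the Q215X/+ background in both sets, against 27.3% of all genes. Pbk, a mitotic kinase, had the smallest p in HA-NRG1 type III/+ against WT, at 0.67 log2 units (SE 0.21, limma adjusted p = 0.477). Limma called 0 of the 25 tested in each comparison, with and without the block. Of 31 other S phase genes, the number higher than WT in both sets was 13 in each comparison, as counts and not as a shared set of genes, against the same shares of all genes. Of the 24 tested, 0 were called in these fits. Tk1, thymidine kinase, had the smallest p of these in HA-NRG1 type III/+ against WT, at 0.53 log2 units (SE 0.25, limma adjusted p = 0.804).

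**Figure D4:**
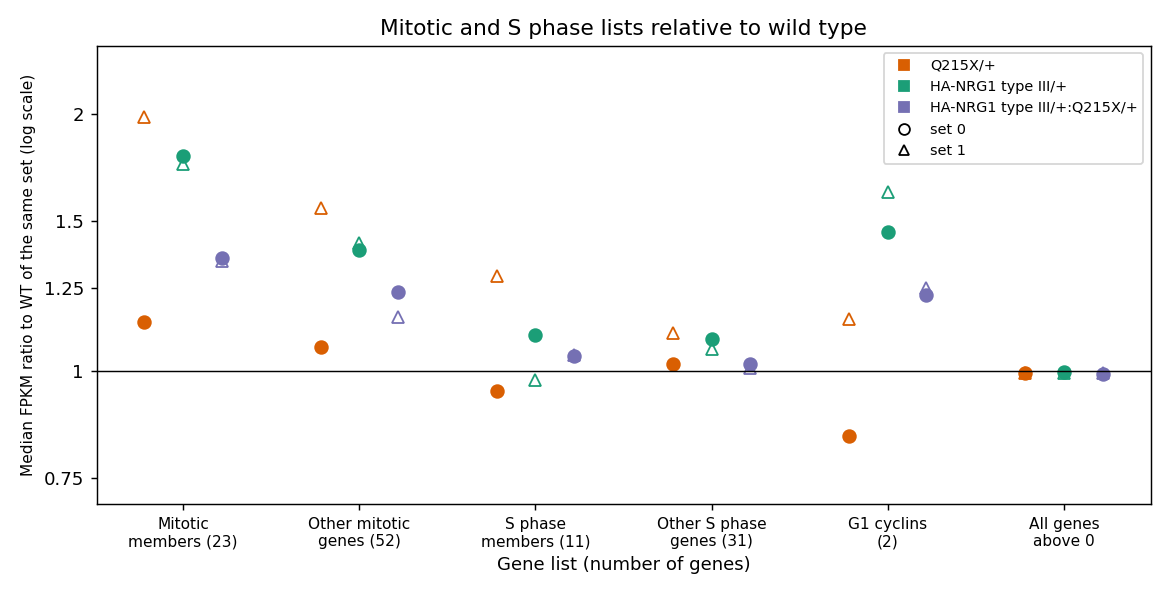
Median over each gene list of the FPKM ratio to WT of the same set, on a log axis, for 3 genotypes, with circles for set 0 and open triangles for set 1. The mitotic members lie at 1.14 to 1.98, the S phase members at 0.95 to 1.29, and all genes above 0 in every library near 1.

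Regulators upstream of these genes included 5 that were called for the transgene over both backgrounds with the block, and 0 without it. In that fit 7.1% of all genes were called. Of 14 kinases, inhibitors and pocket proteins of G1, 3 rose and 0 fell. For Cdkn2b, the inhibitor p15, WT libraries had 5.52 and 6.52 FPKM, Q215X/+ libraries 5.61 and 4.92, HA-NRG1 type III/+ libraries 8.72 and 9.43, and double libraries 7.68 and 10.8. All transgenic libraries were above all others, with a difference of 0.61 log2 units (SE 0.10 with the block, limma adjusted p = 0.0184, and 0.0814 without). Cdkn2a, a neighbouring locus for p16 and p19ARF, rose by 0.95 (limma adjusted p = 0.0185 with the block) and the D-type cyclin Ccnd3 by 0.22 (0.0414). Cdkn1b, the inhibitor p27, was lower in all 4 transgenic libraries, at 68.6 to 85.4 FPKM against 87.7 to 113 without the transgene, and was not called (−0.31 log2 units, limma adjusted p = 0.117 with the block). Of 18 genes of the DREAM complex, E2F and NF-Y, 14 were tested and 2 called: E2f3, an activating E2F, rose by 0.31 (limma adjusted p = 0.0322 with the block) and Tfdp1, an E2F partner, fell by 0.21 (0.0221). Of these 5, only Tfdp1 was called with the block and no filter on low genes, at a limma adjusted p of 0.032.

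Markers of cells that a nerve sample can hold also differed between libraries. Of 12 macrophage genes, 11 were above 0 for the transgene over both backgrounds, and with the block Cx3cr1 rose and Cd163 fell. Their summed level was 499 to 547 FPKM in WT, 522 to 544 in Q215X/+, 521 to 695 in HA-NRG1 type III/+ and 556 to 673 with both alleles. Of 8 fibroblast genes, 6 were above 0, and the sum was 5659 to 6243 FPKM for WT, 6010 to 6595 for Q215X/+, 6995 to 7279 for HA-NRG1 type III/+ and 6657 to 6846 for the double. Red blood cell genes summed to 239 to 244 FPKM in WT, 601 to 1282 in Q215X/+, 49.5 to 90.0 in HA-NRG1 type III/+ and 73.5 to 178 with both alleles. Mast cell genes were highest in HA-NRG1 type III/+ of set 1, at 77.2 against 16.7 to 44.6 elsewhere. Lymphocyte genes stayed at or below a sum of 3.50 FPKM, and no marker gene was at 0 in every library. The part of these cells in the mitotic differences was not tested.

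**Figure D5:**
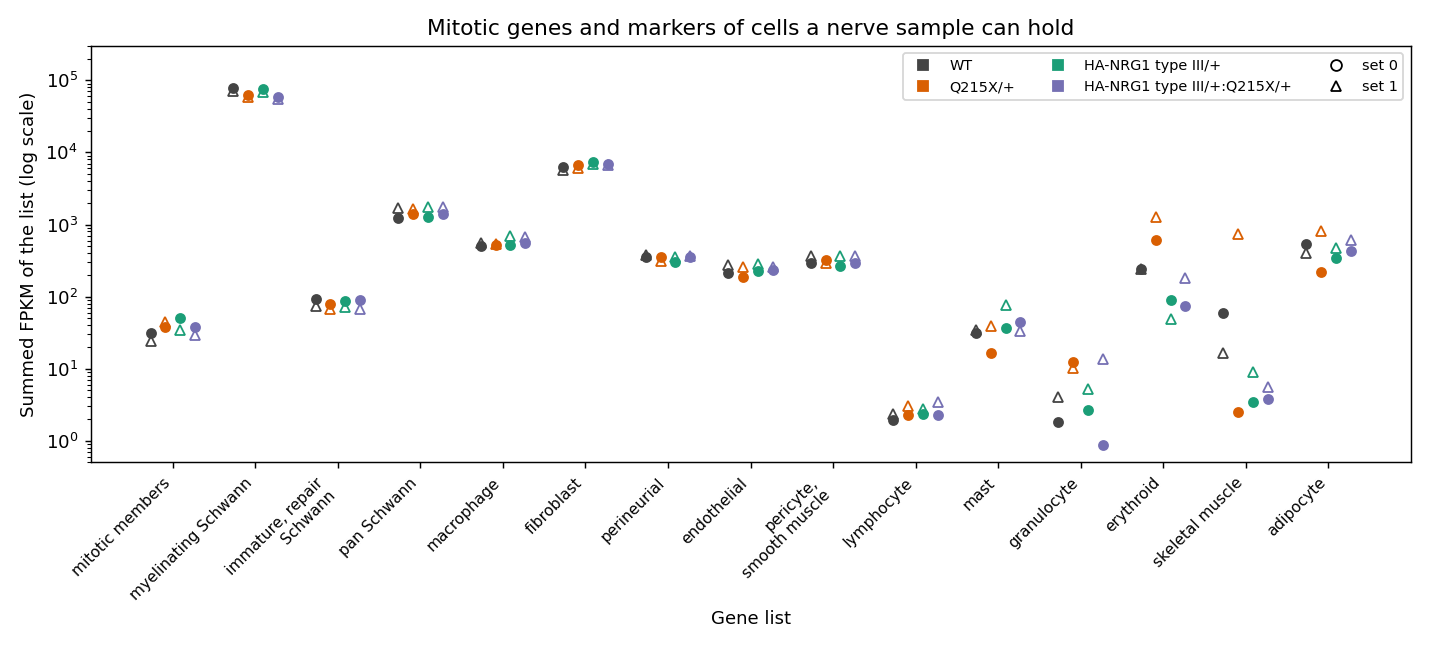
Summed FPKM of the 23 mitotic members and of each list of cell type markers in the 8 libraries, on a log axis, with circles for set 0 and open triangles for set 1. The mitotic sum lies between 24.3 and 50.2 FPKM, and skeletal muscle genes stand out in Q215X/+ of set 1.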

How the data were processed

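Sciatic nerve RNA was poly A selected and made into TruSeq libraries, per the labels' protocols. The deposited table holds FPKM values that the authors computed per gene and library. Per the submitters' processing notes the tools included TopHat2 2.0.9 and Cufflinks 2.2.0, with build mm10, but no source used here states their roles, the annotation or strand handling. FPKM carry no counts, so no counting interval is given. Columns were joined to genotypes by name stem, and the stem for HA-NRG1 type III/+ is an abbreviation assigned as the genotype that no other stem named.

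Genes at a mean of 1 FPKM or more (12530) were tested with limma 3.58.1 in R 4.3.3 on log2(FPKM + 1), with 4 group means over the 8 libraries, an eBayes trend, 4 residual degrees of freedom and Benjamini-Hochberg adjustment, called under 0.05. The script was tested on simulated data. Set 1 minus set 0 differences correlated across genes at 0.118 to 0.304 in all 6 pairs of genotypes, so a second fit took the set as a replicate block (3 degrees of freedom). This pairing rests on the data, as no label gives it. Medians of a list cover all its genes in the table. Ratios use FPKM within a set, and counts over all genes use the 15922 above 0 in every library.

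The members, gene lists and tests were chosen with earlier results of these data known. Named genes were Mki67, Top2a, Cdk1, Pcna, Mcm2, Ccnd1 and Ccnd2, every called member, the 2 S phase and 2 mitotic members with the smallest p in each comparison, the highest and lowest member, and from other lists called genes or those of smallest p, for the comparisons described. Other members, and genes that overlap them, were named after their values were seen. Alternatives were the block, low-value filters, pseudocounts of 0.1 and 0.5, median-ratio scaling, no trend, a term for sex and leaving out each library. Medians without Anln or with a sex term, and the block without a filter, were added after seeing the data.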

Additional observations from a re-analysis of the deposited data

How the results depend on the processing

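Of the alternative values of named members, 453 kept direction and side of the threshold, 10 reversed and 5 passed the threshold. The count of called members was 0 in each comparison under every alternative except the paired fits: 1 with the set as a replicate block in HA-NRG1 type III/+ against WT, and for the transgene over both backgrounds 2 with the block, 1 with sex and the block, and 1 with the block and no filter. The block changed no other call. The median mitotic difference moved with a pseudocount of 0.1 to 0.52 in Q215X/+ against WT, 0.74 in HA-NRG1 type III/+ against WT and 0.37 in the double against WT. With a term for sex it was −0.0558 in Q215X/+ against WT, 0.22 in HA-NRG1 type III/+ against WT and, for the double against Q215X/+, 0.23. With sex and the block it was 0.0634 in Q215X/+ against WT and, for the double against Q215X/+, 0.14. Leaving out 1 library gave 0.22 to 0.58 in HA-NRG1 type III/+ against WT, 0.16 to 0.38 in Q215X/+ against WT (lowest without WT of set 1), 0.08 to 0.29 in the double against WT, and −0.22 to 0.06 in the double against Q215X/+. The term for sex reversed Rrm2 in the interaction (0.12) and in Q215X/+ against WT (−0.032), and Ccne1 in the double against Q215X/+ (0.17) and in the interaction (0.20). With sex and the block Ccne1 was 0.0744 and 0.0528 in these 2 comparisons, and Pcna was 0.0097 in the double against Q215X/+. Leaving out 1 library gave −0.36 to 0.0404 for Ccne1 and −0.23 to 0.0171 for Pcna in that comparison, and −0.11 to 0.58 for Rrm2 in the double against WT. The cause of these changes was not tested. Median-ratio scaling moved no library by more than 0.0243 log2 units and changed no call. Sex is estimated from the 2 libraries of HA-NRG1 type III/+ alone, and with 2 libraries a genotype and low FPKM, differences of single mitotic genes are imprecise.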
